A study of Mus musculus with 2 samples.

Results

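The nuclear-encoded respiratory chain genes were described in the left cerebral cortex of newborn mice. They were taken by their symbols: every gene annotated as protein coding whose symbol begins with Nduf, Uqcr, Cox4 to Cox8 or Atp5, with Sdha to Sdhd and Cyc1 and without Ndufa4l2, whose symbol has a further suffix. This gave 94 gene identifiers with 93 symbols, since Atp5o has 2 identifiers, out of 55536 annotated genes and 22028 protein-coding genes. By role, 36 were subunits of complex I, 8 were Nduf-named assembly factors of complex I, 4 belonged to complex II, 9 to complex III, 19 to complex IV and 18 to complex V. Ndufa4 was counted in complex IV, where its protein is found, although its name points to complex I. Total RNA was sequenced from 2 samples of whole left cortex, from male mice of the strain B6CASTF1/J, a first-generation hybrid of C57BL/6 and CAST, at 4 days of age. The mice were untreated as far as the labels say, and the series holds no other group, so levels are described and no conditions are compared. The labels number the tissue samples as separate males but give both the same donor record. Paired values are those of replicate 2 and replicate 1, and levels are TPM, a unit that divides reads by transcript length and sets them against all transcripts of the library (mean ± SD, n = 2).

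The respiratory chain sits in the inner mitochondrial membrane. Complexes I and II take electrons from NADH and succinate, ubiquinone carries them to complex III, and cytochrome c carries them on to complex IV, which reduces oxygen. Complexes I, III and IV pump protons, and complex V, the ATP synthase, uses the returning protons to make ATP. Most subunits are encoded in the nucleus and imported, and a few core subunits of complexes I, III, IV and V are encoded in mitochondrial DNA. Neurons rely on this pathway for most of their ATP, and several subunits of complex IV have tissue forms known from heart and skeletal muscle, lung or testis.

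Depth was similar, at 29511737 expected counts for replicate 2 against 26897687 for replicate 1. A gene without reads could still be present at up to 3 counts, equal to 0.102 and 0.112 CPM. Markers of cortical excitatory neurons were all detected, with a median of 88.8 ± 9.36 TPM over 6 genes, and none of the 3 liver markers reached a TPM of 1 in both libraries. The summed level of 4 red blood cell markers was 434 TPM in replicate 2 and 205 TPM in replicate 1, and that of 3 choroid plexus markers 33.5 and 1.77 TPM, of which Ttr made up 32.43 and 1.03 TPM. In whole tissue, fewer cells of a type and less RNA per cell cannot be told apart.

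Nearly all respiratory chain genes were expressed, and most stood high among protein-coding genes. Detection, set at a TPM of at least 1 in both libraries, was met by 89 of 94. The identifiers that did not reach it were Cox4i2, Cox7b2, Cox8b, Cox8c and the second identifier of Atp5o (ENSMUSG00000116933.1), which was listed at 0 while the main one held 219.20 and 208.60 TPM. The median over all 94 was 93.5 ± 3.32 TPM, beside 17.6 ± 0.481 TPM over the 13084 detected protein-coding genes and 4.16 ± 0.177 TPM over all protein-coding genes. Of the 94, 79 were above the median of the detected protein-coding genes, 75 above their 75th percentile of 39.5 TPM, and 56 above their 90th percentile of 83.0 TPM. Together they held 10932 TPM in replicate 2 and 10273 TPM in replicate 1, or 2.16% and 2.00% of the TPM of nuclear protein-coding genes. They are short: the median length was 666 bases, beside 2509 bases for detected protein-coding genes. They were spread over every chromosome except 14 and Y, with 3 of them, Cox7b, Ndufa1 and Ndufb11, on the X.

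**Figure D1:**
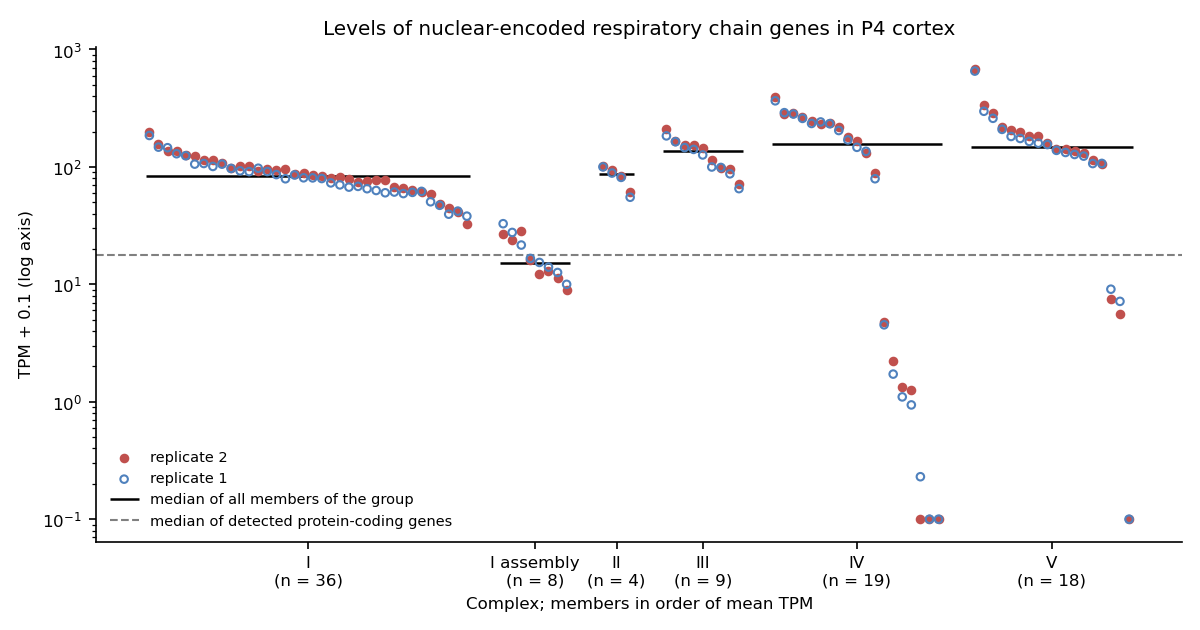
Level of each of the 94 gene identifiers as TPM + 0.1 on a log axis, grouped by complex and ordered by mean within a group; filled points are replicate 2, open points replicate 1, black bars the median of all members of a group, and the dashed line the median of detected protein-coding genes. Subunits of complexes I to V lie mostly between 35 and 400 TPM, the complex I assembly factors near the dashed line, and a handful of complex IV and V members far below it.

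The medians fell in the same order in both libraries: complex IV at 156 ± 13.2 TPM, complex V at 149 ± 3.59, complex III at 136 ± 13.1, complex II at 87.1 ± 3.11, complex I at 83.4 ± 4.75 and the complex I assembly factors at 15.2 ± 1.03 TPM. The gap between complexes IV and V was smaller than the SD of complex IV and larger than that of complex V. In replicate 1 these 2 medians were 146.67 and 146.5 TPM. The gap between complexes II and I was smaller than the SD of complex I and larger than that of complex II. Over detected members alone, the medians of complexes IV and V were 212 ± 11.7 and 158 ± 4.06 TPM. In the other deposited quantification the order of complexes I and II turned round, at 136 ± 6.79 and 98.7 ± 6.11 TPM. With the other table's effective lengths on the same counts it turned round as well, at 82.0 and 61.2 TPM, as did that of complexes V and IV, at 169 and 159 TPM.

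Complex I, the entry point for electrons from NADH, had all 36 of its subunits detected, from 35.4 to 192 TPM, a 5.42-fold range. The 7 core subunits, which carry the redox centres, had a median of 87.3 ± 11.6 TPM, and the 29 accessory subunits one of 83.1 ± 3.72 TPM, a gap within the spread between libraries. Ndufa3, an accessory subunit (mm10 chromosome 7, 3617373–3620327), was highest with 198.80 TPM in replicate 2 and 184.99 in replicate 1. Ndufb8 followed with 157.26 and 147.18 TPM, and Ndufv3, of the NADH-oxidising module, with 135.29 and 145.60 TPM. Among core subunits, Ndufv2 was highest at 107 ± 1.96 TPM and Ndufs8 lowest at 47.4 ± 0.643 TPM. Ndufb4 was the lowest subunit of all, with 32.84 and 37.97 TPM. The top and the bottom of this order both depend on how reads were assigned, as described below.

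The assembly factors of complex I, which help build the complex and are not part of it, were all detected but lower. Ndufaf7, a methyltransferase that acts on a core subunit, had 26.70 TPM in replicate 2 and 32.73 in replicate 1. Ndufaf5 had 23.74 and 27.56 TPM, Ndufaf3 28.22 and 21.50 TPM, and Ndufaf6, the lowest, 8.84 and 9.90 TPM. Each of the 8 lay below every complex I subunit in mean level. A separate list held 41 assembly genes of all complexes and with other names. All 41 were detected, with a median of 15.5 ± 0.148 TPM, and 38 of the 41 lay below Ndufb4. Uqcc2, a complex III assembly factor, was the highest at 93.2 ± 0.184 TPM, Cox19, a complex IV copper factor, had 44.2 ± 0.636 TPM, and the lowest was Sdhaf3, a complex II assembly factor, at 1.88 ± 0.382 TPM. Within that list, complex I factors ran from Dmac1 at 26.5 ± 0.247 to Nubpl at 2.74 ± 0.806 TPM, complex II factors began with Sdhaf4 at 23.1 ± 1.56 TPM, and complex V factors ran from Tmem70 at 16.7 ± 1.82 to Atpaf1 at 11.8 ± 0.127 TPM. Bcs1l was the lowest complex III factor at 8.98 ± 1.31 TPM and Pet117 the lowest complex IV factor at 3.16 ± 0.269 TPM.

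Complex II, which feeds in electrons from succinate and is the complex with no mitochondrially encoded subunit, was the most even: its 4 subunits spanned a 1.72-fold range. Sdhc, a membrane anchor, had 101.33 TPM in replicate 2 and 99.86 in replicate 1. The iron-sulfur subunit Sdhb had 94.91 and 88.49 TPM, and the flavoprotein Sdha 83.69 and 81.31 TPM. The other anchor, Sdhd, was lowest with 61.59 and 55.05 TPM. In the other quantification Sdhc, at 87.0 and 78.8 TPM, was below Sdhb, at 163 and 150, and Sdha, at 119 and 110 TPM.

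Complex III, which passes electrons from ubiquinol to cytochrome c, spanned a 2.88-fold range over 9 subunits. The small subunit Uqcrq was highest, with 210.20 TPM in replicate 2 and 183.60 in replicate 1, followed by the hinge protein Uqcrh with 167.18 and 163.65 TPM and the core protein Uqcrc1 with 153.26 and 145.89 TPM. Cyc1, the cytochrome c1 of the complex, had 95.56 and 87.19 TPM. The Rieske iron-sulfur protein Uqcrfs1 was lowest with 71.54 and 65.19 TPM. In the other quantification Uqcr11, at 264 and 240 TPM, stood above Uqcrc1, at 254 and 234 TPM. Cytochrome c itself, Cycs, was far lower at 17.14 and 17.70 TPM in the gene table, but at 189 and 178 TPM in the other quantification, so its level is uncertain.

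Complex IV, cytochrome c oxidase, held the widest spread, because it includes the tissue forms. Cox4i1, the regulatory subunit of most tissues (chromosome 8, 120668222–120674207), was highest with 396.63 TPM in replicate 2 and 365.25 in replicate 1. Cox6b1 had 283.59 and 289.50 TPM, and Ndufa4 287.15 and 281.70 TPM. In the other quantification Cox6c, at 560 and 584 TPM, and Cox7c, at 561 and 521 TPM, stood above both. Cox4i1, at 621 and 559 TPM there, was below Cox6c in replicate 1. Of 19 members, 4 were below detection.

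Complex V, the ATP synthase, held the highest level of all members. Atp5b, the catalytic beta subunit (chromosome 10, 128083273–128090391), had 675.11 TPM in replicate 2 and 654.01 in replicate 1, from 18206 and 15148 reads. Atp5a1, the alpha subunit, had 335.14 and 297.49 TPM, and Atp5g3, which encodes the c subunit of the membrane ring, 286.50 and 259.17 TPM. In the other quantification Atp5e, at 568 and 426 TPM, stood above Atp5g3, at 459 and 420 TPM. Among detected members the lowest were Atp5g2, another c subunit gene, with 5.51 and 7.06 TPM, and Atp5s, a coupling factor also called Dmac2l, with 7.37 and 8.99 TPM. Atp5g2 is the member whose level depended most on the quantification.

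The subunit forms known from most tissues were higher than their tissue forms in both libraries. In the c subunit pairs Atp5g3 was set first with its level known, so its rank there is a description. Cox4i1 was 342-fold higher than Cox4i2, a form known from lung and from low oxygen, in replicate 2 and 435-fold higher in replicate 1. Cox4i2 itself had 14 and 9 reads, or 1.16 and 0.84 TPM. The muscle forms were near the detection threshold as well. Cox6a2 had 2.14 TPM in replicate 2 and 1.62 in replicate 1, against 266.38 and 258.68 TPM for Cox6a1. Cox7a1 had 1.24 and 1.00 TPM from 7 and 5 reads, against 165.35 and 146.67 TPM for Cox7a2. Of 4 markers of skeletal and heart muscle, 2 were detected, with a summed level of 10.4 and 9.27 TPM. Most of that was Actn2 at 8.28 and 7.59 TPM, with Myh6 at 1.87 and 1.37 TPM, Tnnt2 at 0.20 and 0.31 TPM and Ckm at 0.05 and 0 TPM. Their part in these levels was not tested.

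The muscle and brown fat form Cox8b and the testis form Cox8c had no read in either library. Cox8a, with 248.17 TPM in replicate 2 and 234.19 in replicate 1, was therefore at least 416-fold and 347-fold higher than Cox8b, and at least 572-fold and 477-fold higher than Cox8c, taking 3 counts per library as the limit. Cox7b2, a testis form, had 0 reads and 1 read, against 130.63 and 135.56 TPM for Cox7b. Cyct, the testis form of cytochrome c, also had 0 reads and 1 read. Cox6b2, known from testis, was the highest of the low complex IV forms, with 4.69 and 4.42 TPM from 34 and 27 reads, against 283.59 and 289.50 TPM for Cox6b1. Ndufa4l2, which is induced by low oxygen and lies outside the symbol rule, had 2.60 and 3.73 TPM, against 287.15 and 281.70 TPM for Ndufa4.

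Not every pair was lopsided. Cox7a2 was 1.86-fold higher than Cox7a2l, a factor that joins complexes III and IV, in replicate 2 and 1.85-fold higher in replicate 1, where Cox7a2l had 89.08 and 79.17 TPM. The c subunit genes Atp5g3 and Atp5g1 encode the same mature protein behind different import peptides, and Atp5g3 was 1.43-fold and 1.48-fold higher than Atp5g1, which had 199.91 and 174.54 TPM. On the log2(TPM + 0.1) scale, Atp5g3 over Atp5g2 was 5.43 ± 0.351 in the gene table and 1.08 ± 0.00174 in the other quantification. The even pairs moved less: Cox7a2 over Cox7a2l was 0.890 ± 0.00205 and 1.22 ± 0.0520, and Atp5g3 over Atp5g1 was 0.545 ± 0.0361 and 0.928 ± 0.0870. Reads of Cox7a2l may be shared with its pseudogene copy Gm6969, at 70.06 and 60.45 TPM in the gene table. Cox7a2l and this copy summed to 159 and 140 TPM there.

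**Figure D2:**
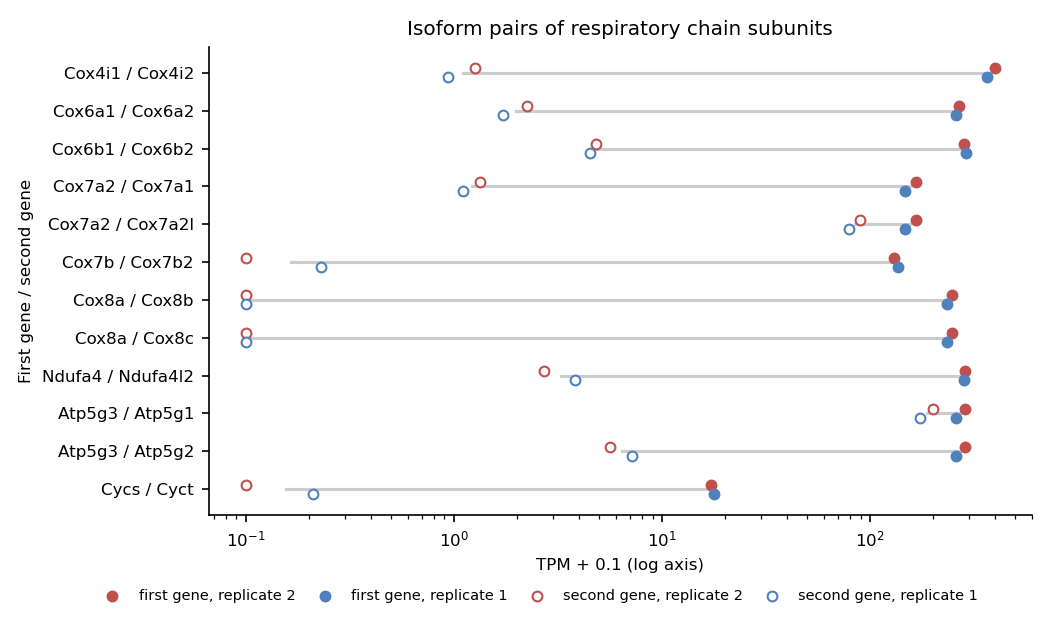
TPM + 0.1 on a log axis for the first gene (filled) and the second gene (open) of 12 isoform pairs, in replicate 2 (red) and replicate 1 (blue). The first gene lies to the right in every pair; the gap is narrow for Cox7a2 and Cox7a2l and for Atp5g3 and Atp5g1.

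Many respiratory chain genes have processed copies in the genome, and these bear on the levels. Of the 89 detected members, 35 had at least 1 other gene that shared 40 or more 31-base words with their coding sequences, and 17 shared over 50% of those words. The 61 such genes were pseudogenes in 55 cases. The pseudogenes together held 957 TPM in replicate 2 and 925 TPM in replicate 1 in the gene table, against 160 and 146 TPM in the other quantification. For 10 members the copies reached 10 TPM in both libraries of the gene table: Atp5g1, Atp5g2, Atp5h, Atp5l, Cox5b, Cox7a2l, Cox7c, Ndufa12, Ndufb4 and Ndufs5. Other members had copies at that level in the other quantification alone. These copies held 61.5 and 42.6 TPM for Ndufb9, and 49.6 and 38.5 TPM for Ndufab1. Those of Atp5o held 33.5 and 34.1 TPM, and those of Ndufb2 10.7 and 14.1 TPM.

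A read cannot tell a gene from its copy where their sequence is the same. In several members with such copies, the coding sequence of a transcript, its stop codon left out, was identical to the copy. This held for the 438 coding bases of Atp5g2 (chromosome 15, 102662864–102672352) and the transcribed processed pseudogene Gm10175 on chromosome 7, for the 189 bases of Cox7c (chromosome 13, 86044816–86046904) and Gm12338 on chromosome 11, for the 387 bases of Ndufb4 (chromosome 16, 37647170–37654453) and Ndufb4c on chromosome 15, and for the 309 bases of Atp5l (chromosome 9, 44912557–44920742) and Gm10221 on chromosome 5. For each of these genes, the opening 90 coding bases shared with its copy are shown because a read inside them fits both. They are taken from the M21 transcripts, 5′ to 3′ on the coding strand, with the start codon in capitals.
Atp5g2: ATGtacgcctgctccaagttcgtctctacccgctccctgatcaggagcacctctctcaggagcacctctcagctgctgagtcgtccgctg
Cox7c: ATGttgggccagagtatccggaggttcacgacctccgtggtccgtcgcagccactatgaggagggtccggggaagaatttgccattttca
Ndufb4: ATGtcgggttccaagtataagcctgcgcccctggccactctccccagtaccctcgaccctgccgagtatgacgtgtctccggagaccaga
Atp5l: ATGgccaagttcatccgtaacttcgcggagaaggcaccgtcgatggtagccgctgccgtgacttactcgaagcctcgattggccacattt

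The tables split Atp5g2 and its copy differently, and which gene the reads came from was not tested. In the gene table Gm10175 had 138.04 TPM in replicate 2 and 126.79 in replicate 1, beside 5.51 and 7.06 TPM for Atp5g2. The other quantification gave Atp5g2 218 and 199 TPM and left Gm10175 at about 0. Ndufb4 had 32.84 and 37.97 TPM with Ndufb4c at 91.72 and 93.79 TPM in the gene table. In the other quantification Ndufb4 had 150 and 149 TPM with Ndufb4c at 0. Transcripts of Ndufb4 annotated as protein coding held 11.6% and 17.9% of its TPM in the gene table. They held 9.43% and 14.1% in the other quantification. Cox7c had 180.16 and 169.58 TPM, less than Gm12338 at 392.23 and 333.36 TPM, and 561 and 521 TPM in the other quantification, where Gm12338 was at 0. Gene and copies summed to 603 and 537 TPM for Cox7c, 144 and 134 TPM for Atp5g2 and 125 and 132 TPM for Ndufb4 in the gene table.

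**Figure D3:**
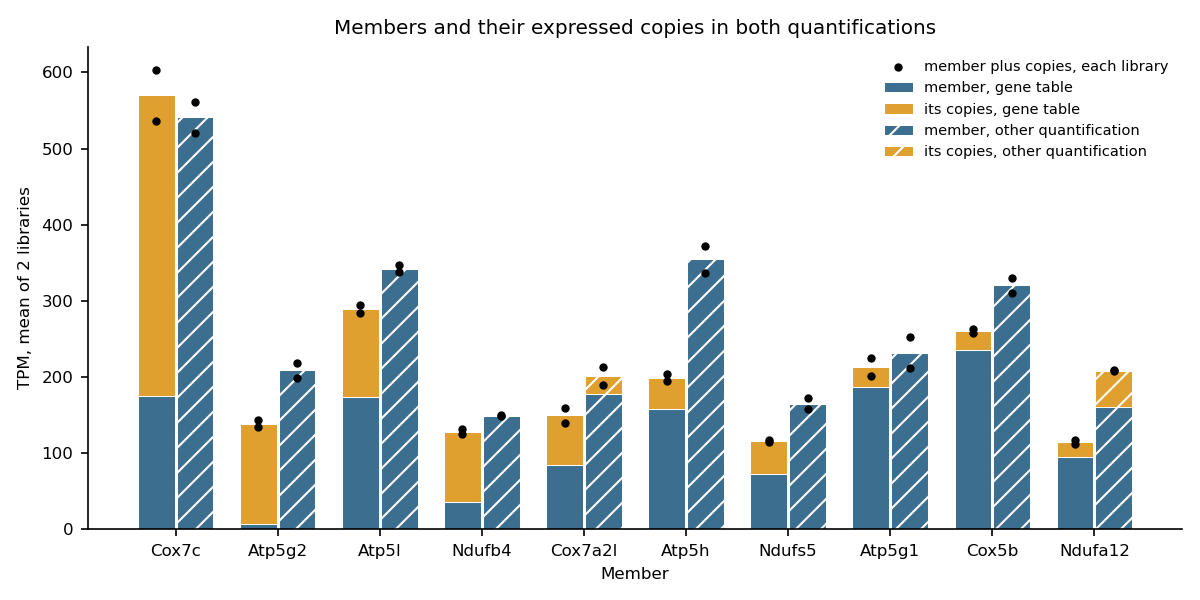
TPM, as the mean of 2 libraries, of the 10 members whose copies reached 10 TPM in the gene table. Members are blue, with their copies stacked on top in orange. Plain left bars are the gene table and hatched right bars the other quantification. Points are the sums in each library. In the gene table the copies hold over 60% of the sum for Cox7c, Atp5g2 and Ndufb4. In the other quantification they are at or near 0 for all of the 10 but Cox7a2l and Ndufa12.

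Across the whole set the 2 quantifications differed by a shift and a few outlying genes. The other quantification gave higher values, by a median log2(TPM + 1) difference of 0.71 in the 89 detected members and 0.52 in detected protein-coding genes. It differed by 2-fold or more in both libraries for 16 of 89 members, beside 4.91% of detected protein-coding genes, and all 16 were higher there. Besides Atp5g2, Ndufb4 and Cox7c, these were Atp5e, Atp5h, Atp5j2, Cox6c, Cox7a2, Cox7a2l, Cox7b, Cyc1, Ndufb5, Ndufb8, Ndufs3, Ndufs5 and Ndufv2. Beyond the median shift, 4 of 89 differed by 2-fold, beside 1.15%: Atp5g2, Ndufb4 and Cox7c, which were higher there, and Ndufa3, which was lower at 116 and 97.3 TPM. The tables also used different effective lengths, 99 bases below the transcript length in the gene table against 342 and 347 bases in the other. With the gene table's counts over the other table's effective lengths, the median log2 difference was -0.03 in members and -0.52 in detected protein-coding genes.

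Within genes, most of the level came from transcripts annotated as protein coding. Over the 89 detected members, these held a median of 96.1% of the gene's TPM in replicate 2 and 95.5% in replicate 1, beside 87.9% and 86.95% over detected protein-coding genes. In the gene table they held under 50% in both libraries for 14 members, or 15.7%, beside 9.67% of detected protein-coding genes. For 13 members the highest transcript there had another annotation in both libraries, and for 10 of these in the other quantification too. The other quantification put 88.0% of Atp5j, 80.7% of Cox5b and 100% of Ndufaf8 on protein-coding transcripts. Ndufb4 was led in both by the intron-retaining Ndufb4-202, with 83.93% and 75.46% in the gene table. The protein-coding share in the gene table was lowest in Ndufa3. There Ndufa3-204, a 343-base transcript annotated as a target of nonsense-mediated decay, held 91.28% in replicate 2 and 89.61% in replicate 1. In the other quantification that transcript was at 0, and the intron-retaining Ndufa3-205 held 62.7% and 69.6%. Uqcrh had 51.60% and 55.42% on the intron-retaining Uqcrh-205. The other quantification put 98.8% and 98.4% on Uqcrh-204, which is annotated as a processed transcript and not as protein coding. Protein-coding transcripts of Uqcrh held 43.3% and 41.2% in the gene table and about 0% in the other quantification. Cox7b had 52.69% and 57.36% on the intron-retaining Cox7b-203, which held 98.9% and 99.1% in the other quantification. The same transcript was highest in both libraries and both quantifications for 50 of 89 members, or 56.2%, beside 69.2% of detected protein-coding genes, so the transcript of a respiratory chain gene was often not settled by these tables.

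The least concentrated members were Cox6b2, Ndufa10, Ndufab1, Atp5s, Ndufaf7 and Ndufaf3, the lowest 6 of 17 whose highest transcript held under 60% in both libraries. In Ndufa10, an accessory subunit of complex I, the highest transcript was the protein-coding Ndufa10-201 with 32.26% in replicate 2 and the decay-annotated Ndufa10-207 with 28.63% in replicate 1. In Ndufab1, the acyl carrier protein of complex I, the intron-retaining Ndufab1-205 led with 34.05% and 38.64%. Ndufaf7 was led by the intron-retaining Ndufaf7-205 with 36.34% and 41.30%.

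The 2 libraries differed slightly, and most respiratory chain subunits were a little higher in replicate 2. Of the 90 members with 10 or more counts, 81 were higher in replicate 2, with a median log2 ratio of 0.18 beside -0.0026 over all 20385 genes tested. An exact binomial test on the counts of these libraries, with Benjamini-Hochberg adjustment over all genes tested, called 52 members higher in replicate 2 and 1 lower, beside 13.9% of all genes called higher and 12.7% called lower. The test compares 2 libraries, so it shows that they differ by more than counting error and nothing about a condition. Genes of like level or length give a closer background. Among 1240 other nuclear protein-coding genes above 83.0 TPM, 53.6% were called higher and 11.3% lower, with a median log2 ratio of 0.08. Of these 1240 genes, 76.5% had a positive ratio. Among the 56 members above that level, 38 were called higher and none lower, with a median of 0.18 and an SD of 0.0665 over genes, and 55 of the 56 were positive. Of other nuclear protein-coding genes under 1000 bases, 12.3% were called higher, beside 34 of 67 members of such length. Of the 193 other nuclear protein-coding genes that were both above 83.0 TPM and under 1000 bases, 44.0% were called higher and 82.4% were positive, with a median log2 ratio of 0.09. Members were not cut by level and length together, so the comparison by length alone is not matched for level.

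By complex, 4 of 4 subunits of complex II were called higher in replicate 2, 8 of 9 of complex III, 12 of 17 of complex V, 20 of 36 of complex I and 7 of 16 of complex IV. The background was 13.9% of all genes tested and 53.6% of other nuclear protein-coding genes above 83.0 TPM. Complex I, at 55.6%, was near the latter share, and complex IV, at 43.8%, was below it. Whether the complexes differ in their ratios was not tested. Atp5a1 had 15042 reads in replicate 2 and 11757 in replicate 1, a log2 ratio of 0.25 (SE 0.0178, exact binomial test, adjusted p = 4.13e-43). Atp5b had a log2 ratio of 0.16 (SE 0.0159, exact binomial test, adjusted p = 3.01e-22). The ratios were largest for complex I accessory subunits among members with 200 or more counts: Ndufs6 at 0.37, Ndufb7 at 0.36, Ndufb10 at 0.34, Ndufc1 at 0.31 and Ndufs5 at 0.29, with adjusted p from 2.49e-05 to 0.00519 in the same exact binomial test. Ndufs6 had 77.49 TPM in replicate 2 and 62.86 in replicate 1. Reads of Ndufs5 may be shared with its copy BC002163, which had 36.04 and 49.99 TPM.

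For assembly factors the median ratios were lower. Of the 8 complex I assembly factors 3, or 37.5%, were higher in replicate 2, beside 49.6% of all genes tested, and the median log2 ratio was -0.14. Ndufaf3 alone, or 12.5% of the 8, was called higher, beside 13.9% of all genes tested. Its ratio was 0.28 (exact binomial test, adjusted p = 0.0326, and 0.0597 with total-count scaling). Counts of the 8 ran down to 102 and 104 for Ndufaf8, and no background of like level was drawn for assembly genes. Among members with 200 or more counts, the smallest ratios were those of Atp5s at -0.50, the one member called lower (SE 0.160, exact binomial test, adjusted p = 0.0106), Ndufaf2 at -0.31, Ndufb4 at -0.27, Ndufaf7 at -0.21 and Ndufaf1 at -0.20, and apart from Atp5s none of these was called. Atp5s was not called in the other quantification (-0.37, exact binomial test, adjusted p = 0.0630). Atp5g2, with fewer counts, had a ratio of -0.27 (exact binomial test, adjusted p = 0.469), and 0.23 in the other quantification (adjusted p = 0.00085). Among the 41 assembly genes with other names, 2, or 4.88%, were called higher and 1, or 2.44%, lower, beside 13.9% and 12.7% of all genes tested. Their median log2 ratio was 0.05. Whether assembly genes and subunits differ in their ratios was not tested.

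The 13 subunits encoded in mitochondrial DNA had a median of 1348 ± 119 TPM, from mt-Co1 at 3991 ± 173 TPM to mt-Co2 at 111 ± 20.97 TPM. Of the 13, 3, or 23.1%, were called higher and 8, or 61.5%, lower, beside 13.9% and 12.7% of all genes tested. Their median log2 ratio was -0.05, and the ratios ran from -0.31 for mt-Co2 to 0.48 for mt-Co3. At high counts small ratios are called: mt-Cytb, with 47588 and 45467 counts, was called lower at -0.039. The lowest level among the 13 depended on the quantification: in the other one mt-Co2 had 1174 and 1124 TPM, mt-Nd4l 8.46 and 4.13 TPM, and mt-Atp8 was listed at 0. Among 12 regulators of respiratory genes, all detected with a median of 15.3 ± 0.156 TPM, the coactivator Ppargc1a was called higher (log2 ratio 0.24, exact binomial test, adjusted p = 0.000936) and its relative Pprc1 lower (-0.17, adjusted p = 0.0137). Each made up 8.33% of the regulators, beside 13.9% of all genes tested called higher and 12.7% lower. The highest level among the 12 regulators was that of the transcription factor Yy1 at 25.9 ± 0.884 TPM and the lowest that of Ppargc1b at 4.29 ± 0.283 TPM. Scaling mattered for the balance of calls: of all genes called, 52.3% were higher in replicate 2 with TMM scaling, 41.9% with total counts and 58.2% with DESeq2 size factors, and the members called higher numbered 52, 42 and 60. All 4 red blood cell markers had more TPM in replicate 2, with the sums given above. Of the choroid plexus markers Ttr was detected and had more TPM in replicate 2, while Clic6, with 0.60 and 0.22 TPM, and Kl, with 0.49 and 0.52 TPM, were below detection. The part of these cells in the member ratios was not tested.

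**Figure D4:**
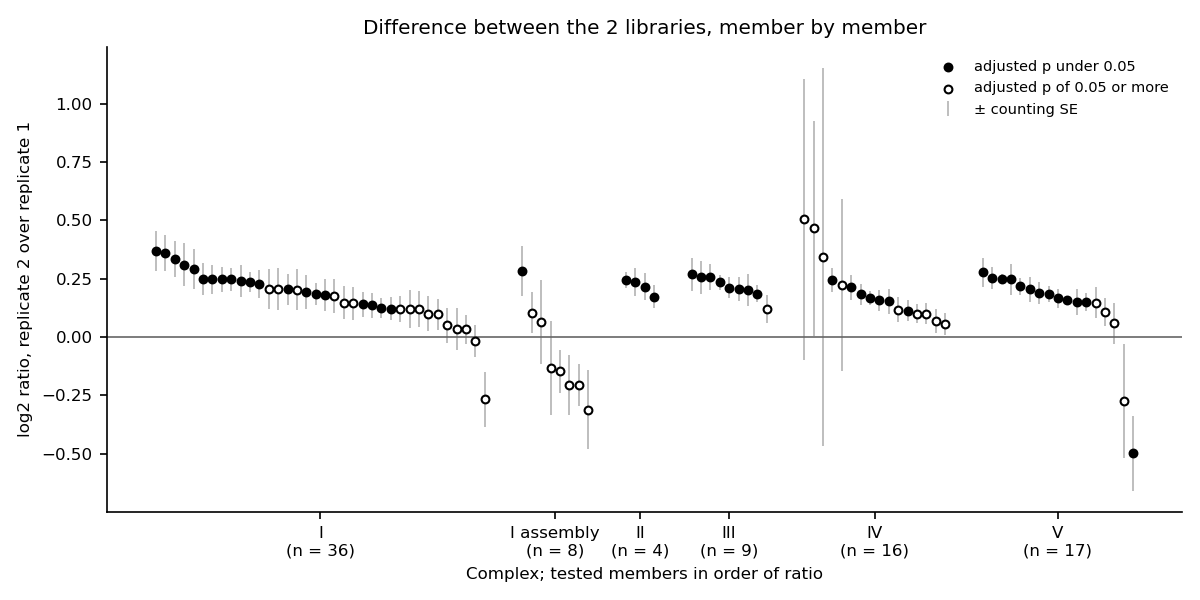
Log2 ratio of replicate 2 over replicate 1 for the 90 tested members, grouped by complex and ordered by ratio, with bars of 1 counting SE; filled points had an adjusted p under 0.05 in the exact binomial test. Subunits of complexes I to V lie mostly between 0 and 0.4, and 5 of 8 complex I assembly factors lie below 0; the long bars in complex IV belong to tissue forms with few reads.

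Promoter letters were read for the members found in the RefSeq table of GRCm38.p6, which gave 81 promoters of 76 gene identifiers, over the 250 bases before each start. Motifs of factors known to act on respiratory genes were searched on both strands. The NRF1 motif of 10 bases, a palindrome that reads the same on either strand, was in 5 of 81 member promoters, or 6.17%, beside 1.11% of 20150 protein-coding promoters. The ETS motif CCGGAAG, of the kind bound by GABP, was in 14 of 81, or 17.3%, beside 9.28%. The SP1 motif GGGCGG was in 31 of 81, or 38.3%, beside 44.1%, and the YY1 motif AAGATGG in 1 of 81, or 1.23%, beside 4.13%. An ETS and a YY1 match can overlap by the letters AAG. Among the 81, 8 promoters held at least 2 of the 4 kinds, and 39 held none. These are exact matches, the median GC content was 57.2% in member promoters and 56.0% in protein-coding ones, and no test was run.

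The promoters with the NRF1 letters are shown with 10 bases on each side, on the strand of the gene and with the motif in capitals, because the share of promoters with these letters, taken as a ratio to that of protein-coding promoters, was the highest of the 4 motifs. Their levels differed widely, with Cox6a1 at 266.38 and 258.68 TPM and the assembly factor Ndufaf4 at 15.86 and 16.52 TPM. They lie at chr5:115349101-115349130 on the minus strand for Cox6a1, chr5:108434430-108434459 on the minus strand for Atp5k, chr17:56717692-56717721 on the plus strand for Ndufa11, chr4:24897960-24897989 on the plus strand for Ndufaf4 and chr15:102671070-102671099 on the minus strand for Atp5g2. The windows of Ndufa11 and Ndufaf4 lie outside all annotated M21 exons, that of Atp5g2 lies within an annotated Atp5g2 exon, that of Atp5k overlaps an Atp5k exon by 19 bases and that of Cox6a1 overlaps an exon of Gm42903 by 1 base.
Cox6a1: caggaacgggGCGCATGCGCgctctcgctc
Atp5k: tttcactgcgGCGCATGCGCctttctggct
Ndufa11: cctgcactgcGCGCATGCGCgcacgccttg
Ndufaf4: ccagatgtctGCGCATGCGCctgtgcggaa
Atp5g2: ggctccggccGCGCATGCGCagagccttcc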

How the data were processed

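Total RNA libraries of 2 samples of 1 group were used. Library input was 300 ng of RNA with ERCC spike-ins, and libraries were stranded and depleted of ribosomal RNA, per the labels' protocols. The authors deposited a gene table with expected counts and TPM, and also posterior mean TPM, per the file headers. They deposited a transcript table of the same kind, with each transcript's percent of its gene, and another transcript table of estimated counts with a TPM column, again per the file headers; its values were summed per gene and are called the other quantification. The labels name the assembly mm10, and gene identifiers matched GENCODE M21. Aligner, quantifiers, versions and strand setting were not given in the sources used here, so overlapping genes may share reads. Alleles were not told apart, and whether reads of the CAST allele were all assigned was not tested.

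Spike-ins took 0.351% of counts in replicate 2 and 0.323% in replicate 1 and stayed out of all fits, as did 26248 rows with numeric identifiers, which held 2 and 6 reads. Counts carry no named molecular identifiers, so limits cover counting error only. Nothing beyond the labels' sample names says that the samples came from separate animals, so the spread may be partly technical. With 2 samples an exact sign test cannot give p below 0.5, and levels and pairs carry no p-value.

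Detection required a TPM of at least 1 in both libraries. Pair ratios used log2(TPM + 0.1). Expected counts were rounded for a two-sided exact binomial test of replicate 2 against replicate 1, with TMM-scaled library sizes (edgeR 4.0.16, R 4.3.3), Benjamini-Hochberg adjustment over genes with 10 or more counts, a threshold of 0.05 and a prior count of 0.5 in log2 ratios. It was tested on simulated data. Shared sequence was counted as 31-base words of coding sequences in M21 transcripts. Alternatives were another quantification, posterior means, another denominator, other scalings (total counts, DESeq2 1.42.0 size factors) and count minimums, and leaving out each replicate.

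Members and lists were chosen with earlier results of these data known. Named genes are the 3 highest and the lowest of each complex, all pair genes, the 5 largest and 5 smallest replicate ratios among members with 200 or more counts, members whose quantifications differ by 2-fold, members whose highest transcript held under 60% in both libraries, at most 6 (the lowest were taken), and the extremes of each list. Marker lists are given as sums or medians. Other named genes were chosen after their values were seen. Promoter sequences are from RefSeq; 18 of the 94 identifiers had no entry there.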

Additional observations from a re-analysis of the deposited data

How the results depend on the processing

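No paired analysis was possible because the series holds 1 group. The counts of members called between the libraries (44 to 61, with 53 as reported) stayed within 1.5 times under each alternative tried, and the first gene of each of the 12 pairs stayed higher, the c subunit pairs having been ordered with levels known. Leaving out each replicate gave 91.1 to 95.8 TPM for the median of all members, 146.67 to 165.35 for complex IV, 146.5 to 151.6 for complex V, 126.33 to 144.79 for complex III, 84.9 to 89.3 for complex II, 80.0 to 86.7 for complex I and 14.4 to 15.9 for its assembly factors. In the other quantification these medians were 161 TPM for all members, 323 for complex IV, 258 for complex V, 218 for complex III, 98.7 for complex II, 136 for complex I and 24.6 for assembly factors. Rescaled to nuclear protein-coding genes they were 183, 306, 292, 266, 171, 163 and 29.7 TPM in the same order. The posterior mean gave 145 TPM for complex V, and the other table's effective lengths, chosen after seeing the data, gave 169 for complex V, 159 for complex IV, 125 for complex III, 82.0 for complex I and 61.2 for complex II, so V stood above IV and I above II. Detected members alone gave 212 for complex IV and 158 for complex V. The share of protein-coding transcripts had a median of 88.7% in the other quantification. Members that differed 2-fold between quantifications fell to 4 beyond the median shift, also chosen after seeing the data. On the forward strand alone, ETS letters were in 6 promoters and SP1 letters in 19. Among named ratios, Atp5s was not called in the other quantification (-0.37, exact binomial test, adjusted p = 0.0630), and Ndufaf7 was called lower with total counts and with protein-coding genes alone (adjusted p = 0.0441 and 0.0461). Causes were not tested. Depth limits the low complex IV forms, which rest on 34 reads or fewer per library.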
